A study of Mus musculus with 12 samples.

Results

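The cerebral cortex of mouse embryos at embryonic day 17 (E17) was compared with the cortex at embryonic day 11 (E11), the widest span before birth in a series on how the forming cortex takes up and stores zinc. The members were every gene tested in the 3 libraries labelled E17 and the 3 labelled E11, which are 6 of the 12 libraries of the series. Each library held poly(A)-selected RNA from the cortex of 1 untreated C57BL/6 embryo, and each of the 3 embryos per age had a litter of its own. The libraries at embryonic day 13 (E13) place a change within the span, and those at postnatal day 1 (P1) entered the filter, the scaling and the shared estimate of spread and are drawn for the zinc genes.

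The cortical wall begins as a sheet of neuroepithelial cells that divide at the ventricle and turn into radial glia, whose cell bodies keep dividing there while their long fibres guide migrating neurons. Radial glia give rise to neurons directly or through intermediate progenitors, deep-layer neurons before upper-layer neurons, and later to astrocytes and oligodendrocyte precursors. Inhibitory interneurons are born outside the cortex and migrate into it. Zinc enters the cytosol through ZIP transporters (Slc39a genes), leaves it for vesicles or the outside through ZnT transporters (Slc30a genes), and is held by metallothioneins.

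The 6 libraries held between 28173745 and 45858712 counts assigned to genes. Of 50600 gene identifiers, 17847 had enough counts to be tested. Within E11 the log2 values of pairs of libraries correlated with r from 0.9872 to 0.9929, within E17 from 0.9906 to 0.9922, and across the ages from 0.8377 to 0.8561. Levels are given as CPM, the count relative to the library total, scaled by the trimmed mean of M-values (TMM), and they are not divided by gene length, so levels of different genes are not compared. Cortical identity was checked on Emx1, a homeobox gene of the dorsal telencephalon, which stood at 98.9, 98.8 and 88.7 CPM at E11 and at 34.7, 30.3 and 39.9 CPM at E17. It was present in all 6 libraries, and of 14 Hox genes of the hindbrain and cord none had enough counts to be tested.

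Most tested genes differed between the ages. At an adjusted p under 0.05 in edgeR's quasi-likelihood test with Benjamini-Hochberg adjustment, 14210 of 17847 genes (79.6%) changed, 7132 of them higher (40.0%) and 7078 lower (39.7%) at E17. Tested against a 2-fold threshold, 6028 genes (33.8%) passed, of which 3429 rose (19.2%) and 2599 fell (14.6%). The median log2 fold change over all tested genes was -0.03, and the median of its absolute size was 0.84. Rises reached further than falls, since 1291 genes were called higher and 609 lower by more than 3 on the log2 scale. In 82.1% of tested genes the 3 values of 1 age lay wholly above the 3 of the other, so the counts of named groups below are read against these shares. The tissue was sequenced in bulk, so that fewer cells of a type and less RNA per cell cannot be told apart.

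**Figure D1:**
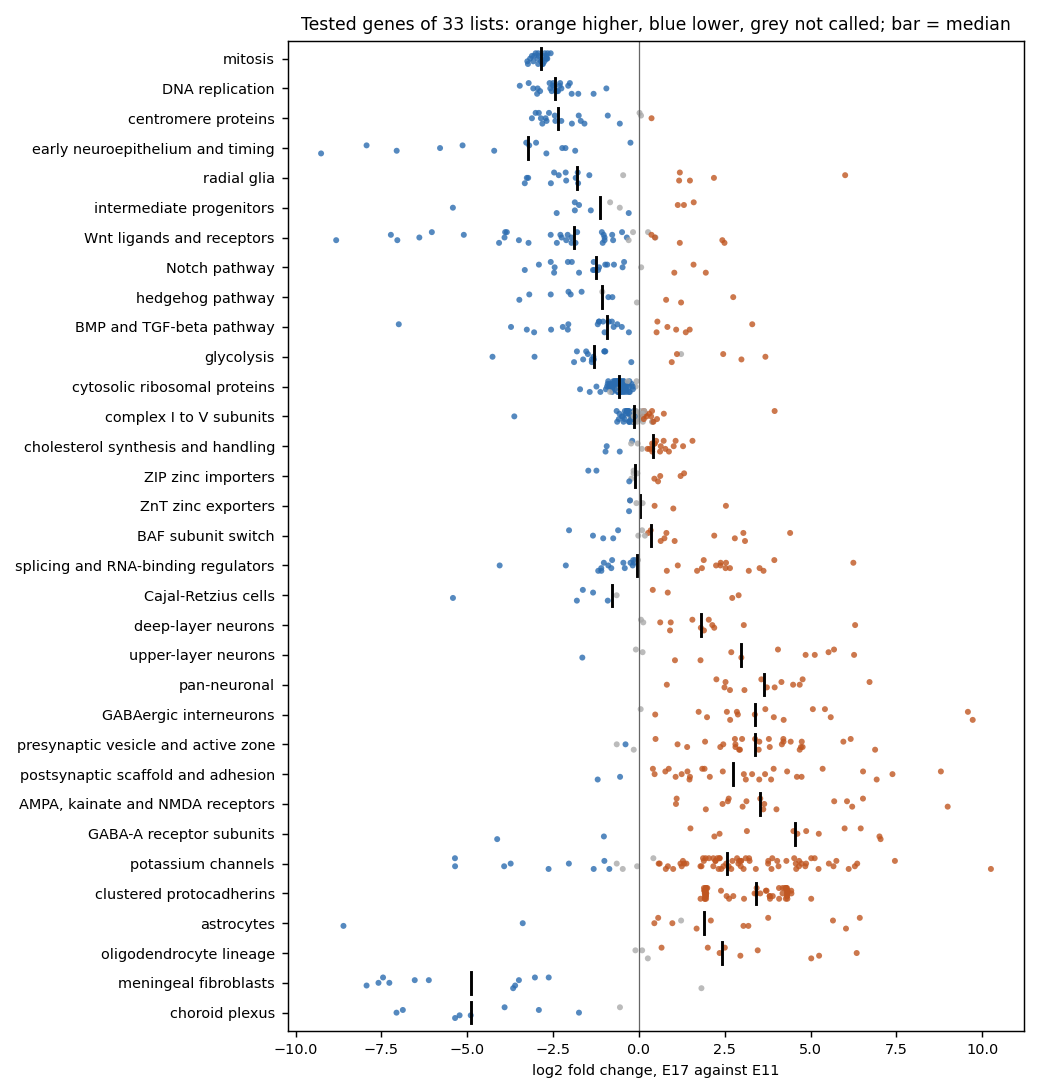
Log2 fold change of E17 against E11 for every tested gene of 33 gene lists (one list per line of the vertical axis), with orange for genes called higher, blue for genes called lower, grey for genes not called, and a black bar at the median of the list. Mitosis and DNA replication lie wholly to the left with medians of -2.84 and -2.45, while the pan-neuronal list lies wholly to the right with a median of 3.65.

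Every measured gene of the cell division lists was lower at E17. All 24 mitosis genes and all 24 DNA replication genes fell, 24 and 23 of them beyond 2-fold, with median log2 fold changes of -2.84 and -2.45 against -0.03 over all genes. Bub1, a kinase of the spindle checkpoint, stood at 151, 157 and 160 CPM at E11 and at 16.9, 12.9 and 19.1 CPM at E17. The groups lay far apart, and the log2 fold change was -3.25 ± 0.12 (SE, n = 3 per age; edgeR adjusted p = 4.21e-11). Kif20a, a kinesin of the late mitotic spindle, fell by 3.23 on the log2 scale, and Birc5, a subunit of the chromosomal passenger complex, by 3.17. Of the proteins that start replication, Cdc6 went from 55.8, 53.6 and 56.6 CPM to 4.77, 3.65 and 6.31 CPM, and its partner Cdt1 from 81.4, 82.6 and 87.8 CPM to 10.7, 7.91 and 11 CPM. Both had no overlap between the ages. Mcm3, a subunit of the replicative helicase, fell by 3.21 on the log2 scale.

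Most of that decrease came after E13. The summed level of the 24 mitosis genes was 6015, 5868 and 6092 CPM at E11, 5349, 4763 and 5466 CPM at E13, and 918.4, 675 and 959.9 CPM at E17. The E13 sums lay below the E11 sums by a small margin and the E17 sums far below both. Among 20 tested centromere proteins 17 fell and Cenpv rose, and the histone H3 variant of the centromere, Cenpa, fell by 3.01 on the log2 scale.

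The promoters of these genes are shown because every gene of the cell division lists fell and because promoters of such genes are known to carry letters of cell cycle control. They are printed from 140 bases before to 20 bases after the RefSeq start (GRCm38.p6), read on the strand of the gene, and therefore cover the proximal promoter and the first bases of the first exon. Capitals mark TTTGAA, the core of the cell cycle gene homology region (CHR), the CCAAT box, and the E2F forms TTTGGCGC, TTTCCCGC, TTTCGCGC and TTTGGCGG, each on either strand, so that ATTGG is a CCAAT box and TTCAAA a CHR of the other strand. The E2F forms share letters and can overlap each other. Cdc20, an activator of the anaphase-promoting complex (chr4:118437324-118437483, minus strand), Ccnb2, a mitotic cyclin (chr9:70421535-70421694, minus strand), Cdk1, the kinase that drives mitosis (chr10:69352893-69353052, minus strand), and Mcm6, a subunit of the replicative helicase (chr1:128359686-128359845, minus strand), follow.
Cdc20: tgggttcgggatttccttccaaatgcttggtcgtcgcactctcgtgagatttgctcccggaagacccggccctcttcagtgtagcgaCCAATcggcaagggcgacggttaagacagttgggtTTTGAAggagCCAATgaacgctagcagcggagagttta
Ccnb2: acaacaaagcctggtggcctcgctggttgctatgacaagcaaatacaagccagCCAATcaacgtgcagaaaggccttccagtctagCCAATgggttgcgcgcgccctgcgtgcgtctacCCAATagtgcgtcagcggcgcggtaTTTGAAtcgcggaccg
Cdk1: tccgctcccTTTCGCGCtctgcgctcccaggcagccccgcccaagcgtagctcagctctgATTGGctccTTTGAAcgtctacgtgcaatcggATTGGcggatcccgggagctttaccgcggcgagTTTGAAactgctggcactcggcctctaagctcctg
Mcm6: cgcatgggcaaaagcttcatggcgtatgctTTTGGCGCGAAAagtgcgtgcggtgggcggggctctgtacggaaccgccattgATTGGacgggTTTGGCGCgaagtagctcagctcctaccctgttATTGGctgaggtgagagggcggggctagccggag

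The CHR letters lay in 76.2% of the 21 promoter windows matched to mitosis genes and in 17.9% of all 32851 windows. Their share was 17.3% for genes lower beyond 2-fold, 11.1% for genes higher beyond 2-fold and 11.2% for the other tested genes. CCAAT lay in 85.7% of the mitosis windows and in 37.4% of all. In the same 3 classes its share was 41.1%, 33.4% and 37.7%. The E2F letters lay in 47.8% of the 23 windows of DNA replication genes and in 2.37% of all windows. Their share was 6.22% for genes lower beyond 2-fold, 1.88% for genes higher beyond 2-fold and 3.97% for the other tested genes. By gene, 15 of 20 matched mitosis genes held a CHR and 11 of 19 matched DNA replication genes held an E2F form. These are matches of letters in a window of 250 bases before to 50 after the start, and no binding was measured. The 4 printed genes all fell: Cdc20 by 3.08, Ccnb2 by 2.72, Cdk1 by 2.80 and Mcm6 by 2.38 on the log2 scale, with edgeR adjusted p of 9.65e-10, 1.39e-09, 6.25e-10 and 5.07e-12.

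Regulators of the step into replication moved in both directions. Of 20 tested G1 genes 13 fell and 5 rose. E2f2, an activator of replication genes, went from 59.8, 52 and 56.8 CPM to 6.17, 3.33 and 5.7 CPM, and Ccne1, the cyclin of S-phase entry, from 47.6, 49.2 and 49 CPM to 4.13, 4.55 and 5.51 CPM. Among the 5 risers were genes that restrain the cycle: the kinase inhibitor Cdkn1b rose by 0.77, and the pocket proteins Rbl2 and Rb1 by 0.74 and 0.65, on the log2 scale. Cyclin D1 (Ccnd1) stood at 344, 370 and 423 CPM at E11 and at 36.7, 42.6 and 37.5 CPM at E17, with 123 CPM on average at E13.

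Genes that mark the youngest neuroepithelium fell together. All 14 genes of the early neuroepithelium and timing list fell, 13 beyond 2-fold, with a median log2 fold change of -3.24, and Mycn was the gene that did not pass the 2-fold test (log2 fold change -0.25). Hmga2, a chromatin protein of young neural stem cells, went from 416, 404 and 691 CPM to 0.757, 0.465 and 1.1 CPM, a log2 fold change of -9.26 ± 0.53 (SE; edgeR adjusted p = 9.14e-08). Its E13 mean was 62.6 CPM, so that the level lay between the ages. Lin28a, which blocks the maturation of let-7 microRNAs, had 180 counts over the 3 E11 libraries and 1 over the 3 E17 libraries, a ratio of 176 with a 95% counting interval of 31.2 to 6990. Crabp2, a retinoic acid carrier that also marks the meninges, fell from 108, 96.5 and 153 CPM to 0.265, 0.609 and 0.539 CPM.

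Radial glia markers moved in both directions. Of 18 tested genes 12 fell and 5 rose, and Hopx did not pass (log2 fold change -0.46, edgeR adjusted p = 0.102). Hes1, a Notch target that keeps progenitors undifferentiated, went from 51, 53.6 and 43.6 CPM to 5.11, 4.69 and 4.97 CPM, and the homeobox gene Emx2 from 203, 179 and 192 CPM to 18.7, 23 and 19.6 CPM. Id4, an inhibitor of bHLH factors, fell by 3.27 on the log2 scale. The 5 risers included Tnc, an extracellular matrix protein of the late germinal zone, which stood at 5.29, 9.79 and 7.61 CPM at E11 and at 474, 579 and 405 CPM at E17. Ptprz1, a phosphatase of outer radial glia and glial precursors, rose by 2.18, and Slc1a3, the glutamate transporter of radial glia and astrocytes, by 1.48 on the log2 scale. Both are also expressed by astrocytes, whose markers moved with them (below).

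Intermediate progenitor markers stood highest at E13 as a sum. The summed level of their 12 markers was 788, 785.3 and 711.8 CPM at E11, 1458, 1654 and 1482 CPM at E13, and 605.3, 563.2 and 743.4 CPM at E17, so that the E11 and E17 sums overlapped and the E13 sums stood above both. Between the ends 7 genes fell and 3 rose. Neurog2, which commits progenitors to the excitatory fate, stood at 132, 149 and 115 CPM at E11, 249 CPM on average at E13, and 32, 29 and 46.7 CPM at E17. Its relative Neurog1 went from 12, 12.6 and 13.7 CPM to 0.265, 0.0716 and 0.469 CPM. The antiproliferative gene Btg2 fell by 1.87 on the log2 scale, and Eomes, the marker gene of these cells, did not pass between E11 and E17 (log2 fold change -0.56, edgeR adjusted p = 0.102). Insm1, a zinc finger factor of newborn precursors, rose by 1.59 on the log2 scale.

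**Figure D2:**
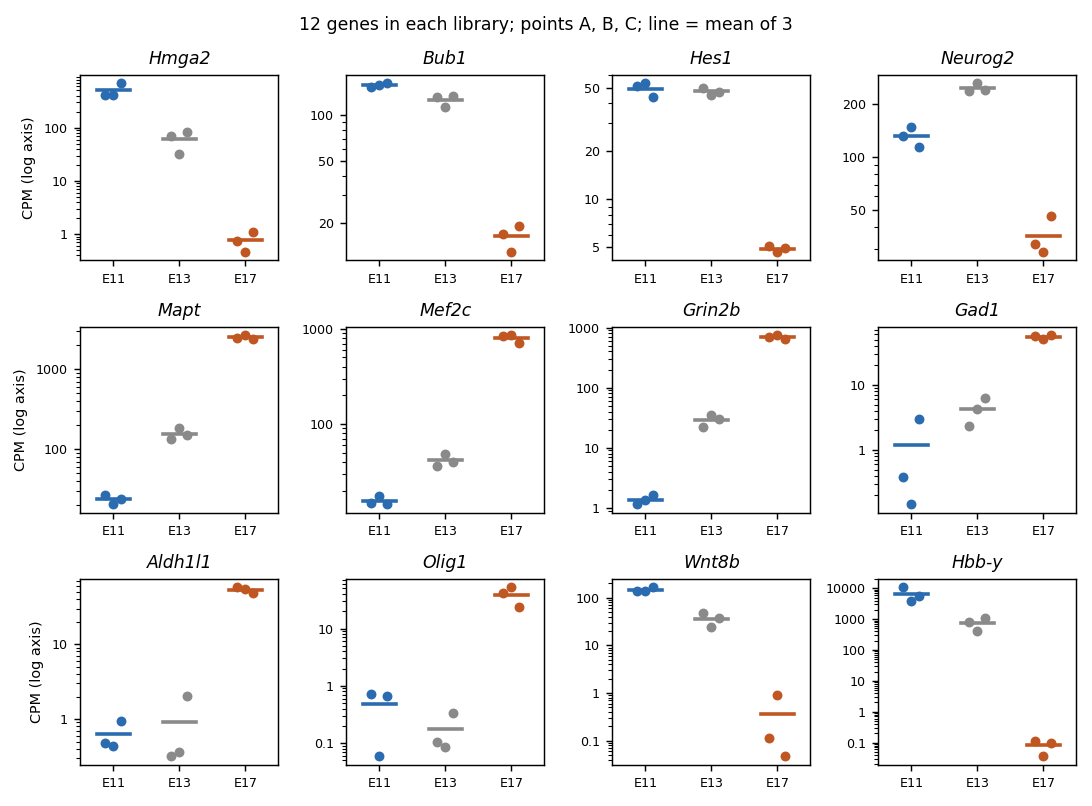
CPM on a log axis for 12 genes in each library at E11, E13 and E17, with 1 point per library (A, B, C from left to right) and a line at the mean of 3. Hmga2, Bub1, Hes1, Wnt8b and Hbb-y fall between the ends, Neurog2 stands highest at E13, and Mapt, Mef2c, Grin2b, Gad1, Aldh1l1 and Olig1 lie higher in every E17 library than in every E11 library.

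Genes of neurons rose together. All 14 pan-neuronal genes rose, 13 beyond 2-fold, with a median log2 fold change of 3.65, and their summed level went from 1699, 1517 and 1756 CPM at E11 through 3041, 3664 and 3274 CPM at E13 to 14120, 14550 and 14190 CPM at E17. Mapt, the microtubule protein tau, went from 26.8, 20.6 and 24 CPM to 2466, 2675 and 2369 CPM, a log2 fold change of 6.72 ± 0.15 (SE; edgeR adjusted p = 8.31e-13). Snap25, a subunit of the vesicle fusion machinery, rose by 4.77, and Syt1, its calcium sensor, by 4.68 on the log2 scale. Every E17 library lay above every E11 library for all 14 genes.

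Factors that drive neuronal differentiation moved in both directions. Neurod6 and Neurod2, active in postmitotic excitatory neurons, and Bhlhe22, a factor of their regional identity, rose by 4.20, 3.68 and 4.29 on the log2 scale. Neurod6 stood at 49.4, 51.4 and 25.4 CPM at E11 and at 782, 694 and 846 CPM at E17. In all 3 genes the third E11 library (C) was the lowest of the age. Nhlh1 and Nhlh2, which act in newborn neurons, fell: Nhlh1 went from 65, 56.5 and 50.4 CPM to 3.56, 5.05 and 6.21 CPM after an E13 mean of 75.5 CPM.

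The deep-layer and upper-layer lists both rose, with medians of 1.80 and 2.98, and the difference between the lists was not tested. Of 13 tested deep-layer genes 11 rose and 2 did not pass: Fezf2, a determinant of subcerebral projection neurons, stood at 96.1, 84.2 and 79.1 CPM at E11 and at 82.9, 88.9 and 98.2 CPM at E17, and Ccn2, a subplate marker, at 8.17 and 8.96 CPM on average. Ldb2, a cofactor of LIM homeobox proteins, rose by 3.05, Crym, a thyroid hormone binding protein of deep projection neurons, by 2.19, and Zfpm2, a cofactor of GATA factors, by 2.14 on the log2 scale. Of 13 upper-layer genes 10 rose. Mef2c, a factor of neuronal maturation, went from 15, 17.6 and 14.5 CPM to 846, 857 and 711 CPM. Inhba, a subunit of activin, rose by 6.26 on the log2 scale from under 0.2 CPM in every E11 library. Cux1 and Plxnd1 did not pass (log2 fold changes of -0.09 and 0.11). Lhx2, counted with upper layers but also a factor of the progenitors, fell from 659, 628 and 548 CPM to 186, 186 and 213 CPM.

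Cajal-Retzius cells, the earliest neurons of the surface, gave a mixed picture. Of 10 tested markers 5 fell and 4 rose, against 39.7% and 40.0% of all tested genes, so the counts do not set the list apart. The transcription factors Ebf2 and Ebf3 fell by 5.42 and 1.81 on the log2 scale, Ebf2 from 51.3, 40.7 and 51.8 CPM to 0.985, 0.394 and 1.76 CPM, and without E17 C the log2 fold change of Ebf2 was -6.12. Reln, the secreted guide of layering, rose from 111, 79.8 and 72.9 CPM to 582, 578 and 574 CPM, and Ndnf, a secreted factor, by 2.90 on the log2 scale. Reln, Ndnf and Calb2, a calcium buffer that rose by 0.84, are also made by interneurons, and interneuron markers rose beside them.

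Of 17 tested interneuron genes 16 rose, 13 beyond 2-fold, with a median log2 fold change of 3.37. The neuropeptide Npy had 6 counts over the E11 libraries and stood at 62.6, 53.4 and 46.3 CPM at E17. Somatostatin (Sst) had 3 counts at E11 and 2652 at E17, a ratio of 904 with a 95% counting interval of 309 to 4387. Gad1, which makes GABA, went from 0.384, 0.147 and 3.03 CPM to 56.7, 51.2 and 58.3 CPM, and the highest of its E11 values stood well above the other two. Markers of the striatum, which lies next to the cortex and holds GABAergic neurons, also rose in 8 of 12 genes, and their summed level went from 235.9, 208.6 and 215 CPM to 554.6, 381.8 and 496.1 CPM. The dopamine receptor Drd1 had 1 count at E11 and 1391 at E17 (ratio 1423, 95% counting interval 255 to 56231), and Ppp1r1b, abundant in striatal neurons, rose by 5.71 on the log2 scale (6.31 without E11 B). Their part in the rise of the interneuron genes was not tested.

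Synaptic genes rose before birth on both sides of the synapse. Of 31 presynaptic genes 28 rose, 26 beyond 2-fold (median 3.38), and of 30 postsynaptic genes 28 rose, 23 beyond 2-fold (median 2.75). Camk2b, a calcium-dependent kinase of dendrites, went from 1.42, 1.36 and 1.11 CPM to 566, 642 and 527 CPM, a log2 fold change of 8.79 ± 0.21 (SE; edgeR adjusted p = 3.53e-12). The scaffolds Dlgap1 and Dlg2 rose by 7.38 and 6.92 on the log2 scale. On the presynaptic side Rph3a, an effector of vesicle docking, rose by 6.88 (7.99 without E11 C), Syt4 by 6.17 and the fusion clamp Cplx1 by 5.95. The exceptions were few: the scaffolds Homer3 and Homer2 fell by 1.20 and 0.55, the priming factor Unc13b fell by 0.39, and Vamp1 and Slc17a8 did not pass. Camk2a, whose product pairs with that of Camk2b, rose by 0.41 with overlapping groups (edgeR adjusted p = 0.0217), and lost the call without E11 B, E11 C, E17 B or E17 C.

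Glutamate receptor genes rose without exception among those tested. All 17 AMPA, kainate and NMDA receptor genes rose, 15 beyond 2-fold (median 3.53), and so did all 7 metabotropic receptor genes (median 4.29). Grin2b, the NMDA receptor subunit of young neurons, stood at 1.15, 1.33 and 1.62 CPM at E11, 29 CPM on average at E13, and 689, 748 and 650 CPM at E17 (log2 fold change 8.99 ± 0.19 SE; edgeR adjusted p = 1.03e-12). The AMPA receptor gene Gria1 rose by 6.52 and the kainate receptor gene Grik3 by 6.21 (7.46 without E11 C). Grm5, a metabotropic receptor coupled to calcium release, went from 0.148, 0.354 and 0.191 CPM to 149, 155 and 133 CPM.

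GABA-A receptor subunits rose in 12 of 14 tested genes (median 4.56), and 2 fell. Gabra5, of extrasynaptic receptors, went from 0.443, 0.295 and 0.223 CPM to 42.6, 56.2 and 30.1 CPM, and Gabrb1 rose by 6.46 on the log2 scale. Gabre and Gabrq fell by 4.13 and 1.02. The chloride transporters that set the direction of GABA responses moved apart: Slc12a5 (KCC2), which extrudes chloride, went from 6.5, 4.54 and 7.93 CPM to 40.8, 45.4 and 35.9 CPM, while Slc12a2 (NKCC1), which loads it, went from 82.3, 82.2 and 89.5 CPM to 65.5, 69.4 and 60.7 CPM. The log2 ratio of Slc12a5 to Slc12a2 rose by 3.09 between the ages.

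Ion channel families rose in most members. Of 80 tested potassium channel genes 67 rose and 9 fell (median 2.58), of 24 calcium channel genes 20 rose and 3 fell (median 2.77), and of 11 sodium channel genes 8 rose and 3 fell (median 2.85). Scn2a, the sodium channel of young axons, went from 2.81, 2.98 and 3.15 CPM to 159, 172 and 155 CPM, and the auxiliary subunit Scn3b rose by 4.86. Scn11a, a channel of sensory neurons, and the auxiliary subunit Scn4b fell by 3.89 and 2.93 (Scn4b -3.97 without E17 B). Kcns2, a modulatory potassium channel subunit, had no count at E11 and 416 at E17, at least 142-fold higher against a floor of 3 counts over the 3 libraries. Kcnk5, a leak channel, fell from 32.3, 30.2 and 30.8 CPM to 1.97, 1.83 and 2.27 CPM, whereas the leak channel Kcnk3 rose by 7.45. Kcnj13 and Kcne2, which also mark the choroid plexus, fell, and the part of that tissue was not tested.

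Among receptors for transmitters that arrive from other brain regions, 22 of 32 tested serotonin, acetylcholine and adrenergic receptor genes rose and 7 fell. The muscarinic receptor gene Chrm1 rose by 6.64 on the log2 scale (7.45 without E11 B). Htr5a, a serotonin receptor gene, had 3 counts at E11 and 500 at E17 (ratio 170, 95% counting interval 58 to 829). Adra2b fell by 5.04 (-6.24 without E17 A) and Chrnb4 by 3.41. Of 20 neuropeptide and neurexophilin genes 18 rose, and Nxph2, a ligand of neurexins, had no count at E11 and 990 at E17, at least 338-fold higher by the same floor. Nts, the peptide neurotensin, rose by 8.52 (7.71 without E17 B) with E17 values of 35.9, 92.3 and 20.3 CPM, a wide spread, while its receptor gene Ntsr1, a marker of corticothalamic neurons, stood at 101, 109 and 102 CPM after 0.414, 0.295 and 0.191 CPM at E11.

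Besides Nxph2, Drd1, Npy, Sst, Grm5, Grin2b, Camk2b, Nts and Ntsr1, the highest 15 with at least 10 CPM held Cacng3 (an AMPA receptor auxiliary subunit, 1 count at E11 and 1106 at E17), Npas1 (a factor of interneurons, 2 and 1574 counts), Hs3st2 (a heparan sulfate enzyme, 3 and 1834 counts), Dync1i1, Tnr and Mlip. Dync1i1, the neuronal intermediate chain of dynein, went from 0.502, 0.324 and 0.637 CPM to 273, 257 and 264 CPM. Tnr, a matrix protein of neural tissue, rose by 8.41 on the log2 scale.

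Guidance and adhesion genes rose in part of each family. Of 31 semaphorin, plexin and neuropilin genes 22 rose and 5 fell. Sema6b rose by 4.31 and its receptor family member Plxna4 by 3.74, from 64.8, 43.2 and 44.5 CPM to 705, 640 and 689 CPM, while Sema3g, Sema5b and Plxnb2 fell by 1.47, 1.33 and 0.37. Of 38 ephrin, Slit-Robo and netrin pathway genes 19 rose and 14 fell, against 40.0% and 39.7% of all tested genes. The netrin receptor genes Unc5d and Unc5a rose by 5.12 and 4.20. Robo3, which lets commissural axons cross the midline, went from 91.3, 64.5 and 64.5 CPM to 1.17, 1.75 and 0.516 CPM.

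Clustered protocadherins, the surface proteins by which neurites tell self from other, rose in all 57 tested genes, all beyond 2-fold. That count overstates the number of separate observations. The 14 genes of the alpha cluster each held between 865 and 1337 counts at E11 and between 16302 and 19250 at E17, and the 22 of the gamma cluster between 14580 and 21376 and between 54334 and 72802, so that members of a cluster had nearly the same counts. The members of each of these clusters share constant exons, and they are not separate measurements in this counting. The log2 fold changes of the alpha genes ranged from 3.90 to 4.33 and those of the gamma genes from 1.79 to 1.99. The 21 beta genes, which share no constant exons, ranged from 2.39 to 5.02 with a median of 3.72, and all 21 rose beyond 2-fold. Pcdhb9 went from 0.236, 0.472 and 0.287 CPM to 11, 11.7 and 10 CPM. Among cadherin genes with a Cdh symbol 13 of 19 rose and 4 fell, and Cdh13 rose by 5.46 while the endothelial Cdh5 fell by 1.63.

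Most glial genes tested rose. Of 14 astrocyte genes 11 rose and 2 fell (median 1.89), and of 12 tested oligodendrocyte lineage genes 9 rose (median 2.42). Aldh1l1, a folate enzyme of astrocytes, went from 0.473, 0.442 and 0.956 CPM to 57.5, 54.8 and 48.3 CPM, and Hepacam, an adhesion protein of their endfeet, rose by 6.03 on the log2 scale. Gfap, the astrocytic intermediate filament, reached 6.7, 20.6 and 4.06 CPM at E17, with the second E17 library (B) above the other two. The same library was the highest of its age for Hepacam and Olig1. The gap junction genes Gja1 and Gjb6 went the other way: Gja1 fell from 205, 239 and 189 CPM to 16.1, 29 and 15.8 CPM, and Gjb6 had 139 counts at E11 and none at E17, at least 45.3-fold lower. Gja1 is also made by radial glia and Gjb6 by skin.

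Oligodendrocyte precursors were marked by Olig1, a factor of the lineage, at 40.9, 52.2 and 23.7 CPM after 0.709, 0.059 and 0.669 CPM at E11, and by Gpr17 and Lhfpl3, up by 5.25 and 5.02 on the log2 scale, and Gpr17 by 7.58 without E11 A. Cnp, Mbp and Pdgfra did not pass (log2 fold changes of -0.10, 0.09 and 0.26). Of 10 gliogenic factors 8 rose, among them Nfix and Sox10, up by 3.08 and 3.46, and Sox10 by 6.22 without E11 A. Sox9 fell from 118, 112 and 105 CPM to 34.5, 33.6 and 29.3 CPM, and Nfia did not pass.

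Patterning genes moved in both directions. Of 19 tested 8 rose and 8 fell, close to the 40.0% higher and 39.7% lower of all tested genes. Otx2, which also marks the choroid plexus, fell by 6.88 on the log2 scale. Dmrt3, a factor of the medial cortex, went from 53.3, 45.2 and 53.4 CPM to 1.4, 1.65 and 1.92 CPM, and Lhx9 from 49.1, 43.2 and 48.1 CPM to 1.33, 5.84 and 3.31 CPM. Cyp26b1, which degrades retinoic acid, and Sp9, a factor of interneurons, rose by 4.40 and 4.35, and Sp9 by 5.10 without E11 C.

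Of 40 tested Wnt ligand, receptor and modulator genes 31 fell, 22 beyond 2-fold, and 5 rose, none beyond 2-fold (median -1.91). The ligands of the cortical hem led: Wnt8b went from 140, 137 and 165 CPM to 0.114, 0.931 and 0.0469 CPM (log2 fold change -8.82 ± 0.63 SE; edgeR adjusted p = 4.59e-07; -10.92 without E17 B and -8.10 without E17 C), Wnt3a from 21.2, 19.6 and 21.9 CPM to 0.0379, 0.43 and 0 CPM, and the Wnt amplifier Rspo1 from 64.3, 65.3 and 77.6 CPM to 0.454, 0.895 and 0.305 CPM. In each of them the second E17 library (B) was the highest of its age. Lef1, a nuclear effector of the pathway, fell by 3.90. Wnt7a and the secreted modulator Dkk3 rose by 0.36 and 1.19, Dkk3 with E17 values from 47.3 to 101 CPM.

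Of 22 Notch pathway genes 18 fell and 3 rose (median -1.25). The targets Hes1, Hey2 and Hey1 fell by 3.33, 2.91 and 2.57, while the ligand gene Jag2, the fringe enzyme gene Rfng and Numbl, an antagonist of the receptor, rose by 1.95, 1.59 and 1.03. Of 13 hedgehog pathway genes 8 fell and 3 rose: the receptor component Smo fell by 2.57, the transcription factor Gli3 by 3.19 and the co-receptor Gas1 by 3.48, whereas Hhip and Ptch1, which restrain the pathway and are among its targets, rose by 2.74 and 0.79. In the BMP and TGF-beta pathway 19 of 26 genes fell and 7 rose. The ligand Bmp4 had 961 counts over the E11 libraries and 7 at E17, and Id2, an inhibitor of bHLH factors also found in upper layers, rose from 30.6, 34.4 and 36.7 CPM to 309, 333 and 359 CPM.

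FGF genes moved in both directions. Of 26 tested, 13 rose and 7 fell, against 40.0% and 39.7% of all tested genes. The anterior organiser ligands Fgf17 and Fgf8 fell, Fgf17 from 17.5, 25.8 and 4.33 CPM to 0.151, 0.179 and 0.117 CPM and Fgf8 from 250 counts to 3 (ratio 81.5, 95% counting interval 27.6 to 398). Fgf12 and Fgf14, intracellular partners of sodium channels, rose by 4.88 and 4.27 on the log2 scale. Neurotrophin signalling rose in 8 of 11 genes, with Ntf3 up by 4.35 and its receptor gene Ntrk3 by 2.37.

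Genes with a progenitor and a neuronal relative changed their ratio in nearly all cases. For 30 such pairs the log2 ratio of the later to the earlier gene was taken within each library. In 29 pairs it was higher in every E17 library than in every E11 library. These pairs and the order within each were chosen rather than drawn at random, and ratios of other gene pairs were not taken. Among single tested genes 82.1% did not overlap between the ages, so the count of 29 is not read as a result about such pairs. In 17 pairs the earlier gene fell and the later gene rose, both past the test. In the BAF chromatin remodelling complex, Actl6a gives way to Actl6b in neurons: Actl6a went from 159, 163 and 165 CPM to 42.6, 32.4 and 43.7 CPM, and Actl6b from 7.5, 5.69 and 8.19 CPM to 150, 154 and 148 CPM. The log2 ratio rose by 6.47, with SDs of 0.28 and 0.26 among the libraries of an age. The ratio of Ss18l1 to Ss18 rose by 4.13, of Dpf3 to Phf10 by 3.69 and of Dpf1 to Dpf2 by 3.24. Over the whole BAF list 11 of 19 genes rose and 5 fell, and the ATPase gene Smarca2 rose by 3.04.

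Metabolic and transport pairs shifted by unequal amounts. Hexokinase 2 (Hk2) went from 94, 78.4 and 89 CPM to 8.6, 11.1 and 11.8 CPM while hexokinase 1 (Hk1) went from 56.1, 44.7 and 53.3 CPM to 273, 300 and 271 CPM, and their log2 ratio rose by 5.52. The ratio of the neuronal tubulin Tubb3 to Tubb6 rose by 5.16, of enolase Eno2 to Eno1 by 4.35 and of the axonal motor Kif5a to Kif5b by 3.97. The ratio of the glucose transporters Slc2a3 to Slc2a1 rose by 2.27 and that of the lactate dehydrogenases Ldhb to Ldha by 1.40. Grin2b against Grin2d rose by 5.44, although both genes rose. Ptbp2, the neuronal relative of the splicing repressor Ptbp1, did not rise: it fell by 0.41 and Ptbp1 by 2.13, so that the ratio rose by 1.72. In Camk2a against Camk2d the ratio overlapped between the ages and differed by -0.04.

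**Figure D3:**
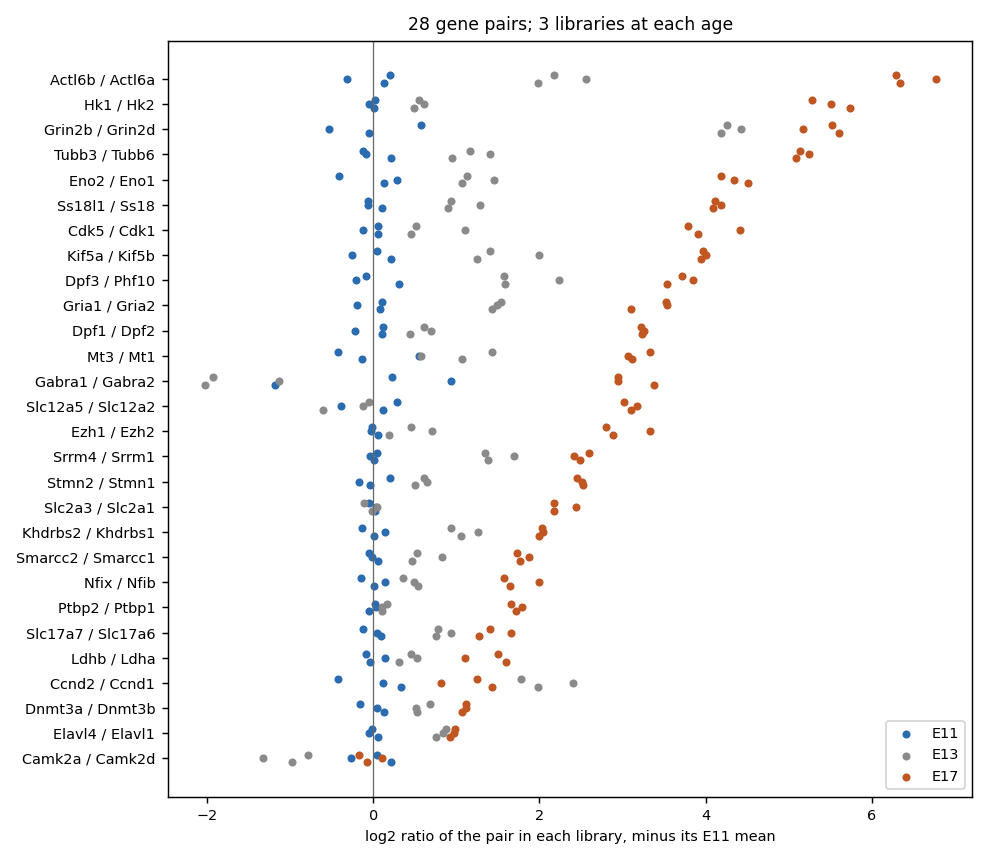
Log2 ratio of the later to the earlier gene of 28 pairs in each library, minus the pair's mean at E11 (horizontal axis), for the 3 libraries at E11 (blue), E13 (grey) and E17 (orange). The E17 points lie to the right of all E11 points in every pair drawn but Camk2a to Camk2d, and for most pairs the E13 points lie nearer to E11 than to E17.

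In the polycomb and DNA methylation list 15 of 27 genes fell and 8 rose. Uhrf1, which copies DNA methylation at replication forks, went from 385, 377 and 385 CPM to 45, 33.5 and 47.2 CPM, and the de novo methylase Dnmt3b fell by 2.14. The methyltransferase Ezh1 rose by 1.47, and the ratio of Ezh1 to its progenitor relative Ezh2 rose by 3.00. Of 34 splicing and RNA-binding regulators 16 rose, 14 of them beyond 2-fold, and 16 fell. Rbfox1, a neuronal splicing factor, went from 2.57, 2.56 and 2.64 CPM to 202, 184 and 203 CPM, and Srrm3, which promotes microexons, rose by 3.63. Mbnl3 fell by 4.06.

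Genes of sugar breakdown fell while those of lipid synthesis rose mildly. Of 21 glycolysis genes 15 fell and 5 rose (median -1.31), and their summed level went from 6365, 6164 and 6590 CPM to 3025, 3283 and 3138 CPM. The lactate exporter Slc16a3 went from 42, 35.2 and 56.5 CPM to 1.29, 2.4 and 3.05 CPM, and phosphoglycerate kinase (Pgk1) fell by 1.89. Pfkp, a phosphofructokinase, rose against the list from 12.4, 9.14 and 12.4 CPM to 163, 146 and 126 CPM. Of 25 cholesterol genes 17 rose and 4 fell, only 2 beyond 2-fold, and Hmgcs1, an early enzyme of the pathway, rose by 1.07. Of 78 mitochondrial complex subunits 15 were higher and 34 lower, with 1, the testis-type subunit Cox6b2, lower beyond 2-fold (median -0.14). Over the alternatives the higher count ranged from 5 to 15 and the lower from 28 to 55.

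Ribosomal protein genes fell as a body by a small amount. Of 83 tested 78 fell and none rose (median -0.59), and 4 passed the 2-fold test. Their summed level went from 30080, 31410 and 30590 CPM to 20200, 20180 and 20690 CPM, with no overlap between the ages. The largest falls were in the variant genes Rps27l, Rpl22l1 and Rpl7l1, by 1.72, 1.44 and 1.24. Many of these genes have processed pseudogenes of near-identical sequence, so that single values are uncertain. Among growth-linked imprinted genes H19, Igf2 and Grb10 fell by 3.69, 2.93 and 3.65, Grb10 from 1029, 1047 and 1039 CPM to 84.1, 71.1 and 92.3 CPM, and Meg3 and Snrpn rose by 2.62 and 2.27.

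Slco1c1, a transporter of thyroxine into the brain, went from 1.39, 2.24 and 0.414 CPM to 58.8, 63.5 and 42.4 CPM, and the receptor gene Thrb rose by 4.37 on the log2 scale (5.14 without E11 A). In the list of hormone and retinoid signalling as a whole 10 of 23 genes rose and 7 fell, against 40.0% and 39.7% of all tested genes. Among immediate early genes, which report neuronal activity and stress, 9 of 16 rose and 2 fell. Nr4a3 went from 1.74, 2.27 and 2.13 CPM to 124, 194 and 116 CPM and Fosl2 from 6.56, 7.55 and 6.5 CPM to 78.5, 132 and 73.7 CPM, while Ier2 and Jun fell by 1.75 and 0.91. Arc, Egr1, Egr4, Fos and Jund did not pass. In the apoptosis list 11 of 20 tested genes rose and 7 fell, against 40.0% and 39.7% of all tested genes. The BH3-only genes Hrk and Bbc3 rose by 2.80 and 2.15, while Bik and Pmaip1 fell by 4.03 and 2.76. Bik was low throughout, with a mean of 1.075 CPM at E11.

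Of 12 tested ZIP genes 5 rose and 3 fell, and of 8 tested ZnT genes 3 rose and 2 fell, against 40.0% and 39.7% of all genes. Over the alternatives the lower counts ranged from 3 to 6 and from 1 to 4, and Slc39a9, Slc39a10, Slc39a14 and Slc30a7 also fell under upper-quartile and library-size scaling. Beyond 2-fold only Slc39a3 and Slc30a3 rose, and Slc39a1 and Slc39a8 fell. Slc39a1, a ZIP of the plasma membrane, stood at 45.5, 51.4 and 47.5 CPM at E11 and at 20.3, 20.1 and 20.8 CPM at E17 (log2 fold change -1.24 ± 0.08 SE; edgeR adjusted p = 6.65e-09). Its close relative Slc39a3 moved the opposite way, from 41.7, 41.6 and 42.6 CPM to 99.9, 97.7 and 94.2 CPM (1.21 ± 0.05 SE; edgeR adjusted p = 3.29e-11). The groups did not overlap in either gene. Slc39a8, which carries zinc and manganese, went from 42, 26.3 and 36.5 CPM to 12.9, 14.1 and 10.8 CPM, and was already at that level at E13 (16.2, 12.7 and 12.8 CPM).

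The summed level of the ZIP genes was nearly level, at 696.2, 705.9 and 680.1 CPM at E11 and 716.3, 729.6 and 695.7 CPM at E17, with overlap. Slc39a2, Slc39a11, Slc39a13 and Slc39a6 rose by 1.31, 0.62, 0.56 and 0.45 on the log2 scale, and Slc39a7, of the endoplasmic reticulum, fell by 0.28. Slc39a9, Slc39a10, Slc39a12 and Slc39a14 did not pass, with log2 fold changes of -0.05, -0.16, -0.22 and -0.16.

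Among the exporters, Slc30a3, which loads zinc into the synaptic vesicles of glutamatergic neurons, was still low at E17. It stood at 0.0591, 0 and 0.35 CPM at E11 and at 0.72, 0.644 and 0.938 CPM at E17 (log2 fold change 2.53 ± 0.69 SE; edgeR adjusted p = 0.00479), and in 7 alternatives, among them DESeq2 and the fits without E11 A, E11 B, E17 A or E17 C, it no longer passed the 2-fold test. Its log2 fold change was 1.94 without E11 B and 4.57 without E11 C. Slc30a4, a vesicular exporter, rose from 31.5, 34.9 and 33.6 CPM to 69.1, 64.2 and 66.8 CPM, close to 2-fold, and Slc30a9, linked to mitochondrial zinc, by 0.45. Slc30a5 fell by 0.29, and Slc30a6, its partner in the secretory pathway, by 0.26 with an edgeR adjusted p of 0.0449 that was lost in 9 of 16 alternatives. Slc30a1, the exporter of the plasma membrane, and Slc30a7 did not pass. Slc30a10 did not pass between the ends, at 42.4, 28 and 18.6 CPM against 30.4, 30.4 and 34.8 CPM, but stood at 94.9, 159 and 99.4 CPM at E13, above every library of both ages.

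Metallothioneins went separate ways. Mt3, the brain form, went from 7.03, 7.49 and 6.31 CPM to 37.5, 42.9 and 35.5 CPM (log2 fold change 2.47 ± 0.10 SE; edgeR adjusted p = 5.29e-11). Mt1, the metal-inducible form, stood at 19, 12.5 and 20.7 CPM at E11 and at 10.6, 12.6 and 8.61 CPM at E17, and its fall of 0.72 passed the test with overlapping groups (edgeR adjusted p = 0.00943). Mt2 did not pass (-0.43, edgeR adjusted p = 0.105). Mtf1, the zinc-sensing factor that drives metallothionein genes, had a log2 fold change of 0.14 at an edgeR adjusted p of 0.048, a call lost when any of the 6 libraries was left out. The ratio of Mt3 to Mt1 rose by 3.17 without overlap. Of 18 genes of iron and copper handling 8 fell and 4 rose (6 to 13 and 1 to 4 over the alternatives), and the deepest falls were in Slc25a37 (the mitochondrial iron importer), Cp (ceruloplasmin) and Steap3 (a ferrireductase), by 4.72, 2.41 and 1.90. Slc25a37 and Steap3 are known from red cell precursors, whose markers fell at the same time (below), and their part was not tested.

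**Figure D4:**
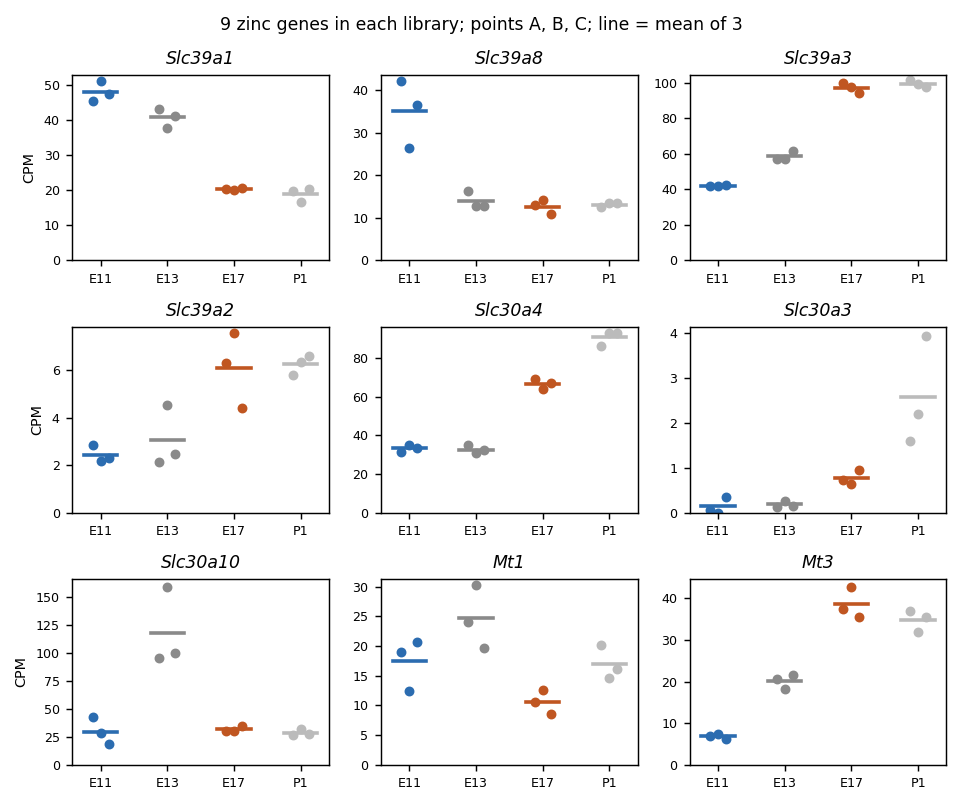
CPM of 9 zinc transporter and metallothionein genes in each library at E11, E13, E17 and P1, with 1 point per library (A, B, C from left to right) and a line at the mean of 3. Slc39a1 and Slc39a8 are lower and Slc39a3, Slc30a4 and Mt3 higher in all 3 E17 libraries than in all 3 E11 libraries, while Slc30a10 is highest in the 3 E13 libraries.

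Most markers of red cells, meningeal fibroblasts, choroid plexus, surface ectoderm and thalamus were far higher at E11. Most striatal markers rose instead (above), markers of vessels moved in both directions, and most microglia markers did not pass (below). The summed level of 13 erythroid genes was 16520, 5757 and 9712 CPM at E11 and 288.4, 165.2 and 344.1 CPM at E17, and 12 of the 13 fell. The embryonic globin Hbb-y went from 663990 counts over 3 libraries to 8, Hba-x from 185920 to 2, and Hbb-bh1 from 74725 to none, at least 24354-fold lower. The adult globin Hbb-bs did not pass (134, 62.1 and 25.6 CPM against 137, 81.3 and 161 CPM), but rose without E11 A (log2 fold change 1.53, edgeR adjusted p = 0.0175). Meningeal fibroblast markers summed to 1358, 1564 and 1667 CPM at E11 and 21.17, 24.49 and 22.35 CPM at E17, and Col1a1 and Lum fell by 7.45 and 7.59 on the log2 scale. Choroid plexus markers fell in 8 of 9 genes, and Clic6 fell by 7.06 and Otx2 by 6.88. Surface ectoderm markers fell in 7 of 9 genes but were low throughout, with sums from 15.64 to 24.55 CPM at E11. Thalamus markers fell in 5 of 6 genes, and their sums went from between 136 and 152.2 CPM to between 10.87 and 15.68 CPM.

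The 15 deepest falls over the whole table included Slc4a1 (the anion exchanger), Epb42, Kel and Hemgn, all known from red cells or their precursors, beside the embryonic globins. These cells' part in the falls of Wnt, BMP, collagen and iron genes was not tested. With the erythroid, meningeal, choroid plexus and surface ectoderm genes removed from the counts, 17790 genes were tested and 14176 changed. The fold changes of the genes left shifted by -0.002 at the median. Removing listed marker genes leaves the other reads of those cells in place, so this run cannot show their part.

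Markers of vessels moved in both directions, and most microglia markers did not pass. Endothelial and pericyte markers summed to 581.6, 600.8 and 510.5 CPM at E11 and to 476.9, 505.2 and 444.1 CPM at E17. Among them 8 of 17 genes were higher and 7 lower, near the 40.0% and 39.7% of all tested genes. Within them, Plvap, a gene of leaky vessels, fell from 20.7, 21.6 and 21.1 CPM to 1.55, 1.72 and 1.5 CPM, while Abcb1a, the efflux pump of the blood-brain barrier, rose by 1.46 and the pericyte gene Rgs5 by 2.39, and Slc2a1, the glucose transporter of the barrier, fell by 1.31. In microglia markers 2 of 14 genes rose, 4 fell and 8 did not pass, whereas 79.6% of all tested genes passed. P2ry12, of resident microglia, rose by 1.24 and Tmem119, another of their markers, fell by 1.77, and Pf4 and Mrc1, of macrophages at the brain's borders, fell by 6.23 and 3.86. Of 43 tested collagens 28 fell and 9 rose: Col3a1 went from 649, 755 and 695 CPM to 4.58, 4.48 and 4.53 CPM, and Col19a1, of interneurons, had 3 counts at E11 and 516 at E17.

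Few genes stood apart at E13 from both ends. Tested against the mean of E11 and E17 beyond 2-fold, and counted where all 3 E13 libraries lay above or below the other 6, 89 genes (0.499%) had a peak and 110 (0.616%) a dip. Since the reference is the mean of the ends on the log2 scale, a gene that fell late can count as a peak when E13 was little above E11. Rhbdl3, a rhomboid-family protease, was a clear peak at 138, 150 and 145 CPM between 43.6, 42.3 and 16.3 CPM at E11 and 16.9, 12.7 and 26.8 CPM at E17. Ltbp1, which stores latent TGF-beta, stood at 61.1, 77.5 and 51.4 CPM at E13 and at 12.8 to 17.4 CPM in the 6 libraries of the ends. Nhlh1 and Neurog1 were peaks on the way to very low levels. Cldn11, Col6a1, Dcn, Cyp1b1 and Postn, peaks that are matrix or meningeal genes or expressed there, had E17 values between 0.0379 and 3.22 CPM.

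Among the dips, Ptk2b, a kinase of the postsynapse, and Usp43 were low at both E11 and E13 and rose later, to 40.3, 51.1 and 29.9 CPM and to 39, 40.4 and 32.8 CPM. Nrgn, a calmodulin-binding protein of dendrites, stood at 2.6, 2.18 and 2.33 CPM, then 1.46, 1.12 and 1.36 CPM, then 25.4, 40.2 and 25.4 CPM. Ank1 and Sptb, membrane skeleton genes of red cells that neurons also express, went from 55.7, 16.7 and 44 CPM (Ank1) at E11 down to 5.98, 7.8 and 7.56 CPM and back to 39.5, 36 and 41.6 CPM. The E11 values of Ank1 and Sptb were lowest in the second library (B), as was the erythroid sum. The part of red cells in these values was not tested.

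Genes with a long span held a larger share of risers. With gene spans from RefSeq, matched for at least 90.4% of each class, the median span was 36.7 kb for genes higher beyond 2-fold, 20.8 kb for genes lower and 19.7 kb for the other tested genes, and 27.9%, 13.2% and 10.4% of the classes spanned more than 100 kb. Among 951 tested genes over 200 kb, 50.9% rose beyond 2-fold and 11.1% fell (median log2 fold change 1.29). Among 2646 genes under 5 kb the shares were 13.5% and 13.6%, with a median of -0.25. The median level was 27.1 CPM in the longest class and 3 CPM in the shortest, so that the classes also differed in depth. Between them, classes of 5 to 100 kb had shares of higher genes from 14.6% to 21.5%.

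**Figure D5:**
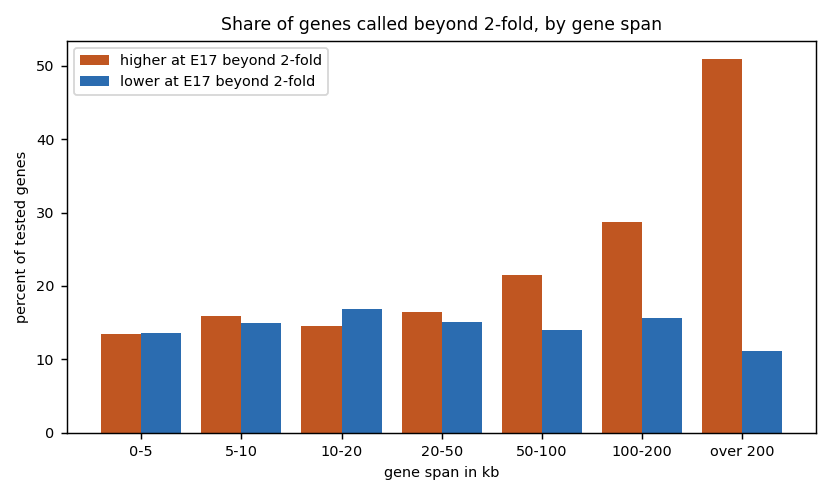
Percent of tested genes called higher (orange) and lower (blue) at E17 beyond 2-fold, by gene span in kb. The share of higher genes is 13.5% under 5 kb and 50.9% over 200 kb, while the share of lower genes stays between 11.1% and 16.9%.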

How the data were processed

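Poly(A)-selected RNA of mouse cortex was sequenced from a stranded library of each embryo or pup. The deposited values are raw counts per gene identifier, made by the authors before deposit; the tools listed in the submitters' processing notes are STAR 2.5.2b, HTSeq 0.5.3, DESeq2 1.8.1, bcl2fastq 2.18 and SAMtools. Not given in the sources used here are the genome build, the annotation and the strand setting of the counting, and overlapping and antisense genes may share reads.

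The counts were tested with edgeR 4.0.16 (R 4.3.3): TMM factors, filterByExpr with a minimum count of 10, and a quasi-likelihood fit over all 12 libraries with age as the only term, so that the 4 ages share 1 estimate of spread on 8 residual degrees of freedom. E17 was tested against E11, then against a 2-fold threshold (log2 of 1), with Benjamini-Hochberg adjustment over the 17847 tested genes at 0.05. E13 was tested against the mean of E11 and E17 in the same way. The biological coefficient of variation was 0.106. Each SE is the absolute log2 fold change divided by the square root of the quasi-likelihood F statistic. It therefore rests on the spread shared by all 12 libraries, not on the compared libraries alone. The fit was also run on simulated counts in which a small share of genes changed, evenly up and down. In the data 79.6% of genes changed, so that run cannot check the scaling or the error rates in this setting. Its outcome is not reported here. The p-values set the difference between the ages against the spread among animals of the same age. That spread was estimated over all 12 libraries, with 3 animals per age.

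Intervals of ratios of summed counts, at a 95% level, and the floor of 3 counts summed over 3 libraries cover counting error only. Alternatives were RLE, upper-quartile and library-size scaling, 2 other filters, removal of genes of other cell types, a fit of the compared libraries alone, a replicate block, DESeq2 1.42.0, limma-voom (limma 3.58.1), and leaving out each library.

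The comparison, the gene lists and the rule for named genes were chosen with earlier results of these data known. The rule named every zinc gene and the genes of the paralogue pairs. From each other list it took the 3 largest rises and 3 largest falls with an adjusted p under 0.05, a mean of at least 1 CPM at E11 or E17 and no overlap. Over all genes it took the 15 largest rises and 15 largest falls beyond 2-fold with at least 10 CPM, and for E13 the 10 highest peaks and 10 deepest dips. Sex-linked genes and unnamed transcripts were left out, and some genes that the rule names are not reported here. Emx1 was named as a check of the tissue. Members named because they did not pass or went against their list, and the 4 genes whose promoters are printed, were chosen after their values were seen. Promoters and gene spans came from RefSeq (GRCm38.p6), and 12259 of 17834 tested symbols matched a promoter. Same-letter libraries of E11 and E17 come from different litters, and their deviations correlated with r of -0.159, 0.146 and -0.114, so the letters were not taken to pair them.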

Additional observations from a re-analysis of the deposited data

How the results depend on the processing

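The number of genes changed between E11 and E17 ranged from 12810 (at least 1 CPM in 3 libraries) to 14889 (no filter), and the number beyond 2-fold from 5037 (DESeq2) to 6341 (no filter), against 14210 and 6028. Leaving out 1 library gave 13802 to 13962 and 5914 to 5966. The number of genes apart at E13 fell from 199 to 102 with limma-voom, and leaving out 1 library gave 185 to 243. The cause was not tested. With the replicate block the 3 numbers were 14048, 5990 and 192, and the letters did not pair the libraries. Scaling by library size alone shifted all genes by -0.217 at the median, the share of changed genes that were higher was then 41.3% instead of 50.2%, and 7 genes were called in the opposite direction. Upper-quartile scaling shifted them by -0.128, with a share of 44.8%. Under library size alone Mtf1 turned to -0.07, Atox1 to -0.04 and Slc30a10 to -0.11. Slc30a10 also turned to -0.02 with upper-quartile factors and to -0.14 without E11 C, and leaving out 1 library gave -0.14 to 0.45. Slc39a12 turned to 0.02 without E11 B and to 0.10 without E17 C, in a range of -0.57 to 0.10. The cause was not tested. Among genes named above, the calls between E11 and E17 of Mtf1, Slc30a6, Cenpv, Wnt7a, Camk2a and Kcne2, and the E13 calls of Cldn11, Col6a1, Dcn, Ptk2b, Nrgn, Sptb and Ank1, were lost in at least 1 alternative, while Mt2, Slc30a1, Slc30a7, Slc39a9, Slc39a10, Slc39a14, Kif5b and Hbb-bs passed in at least 1. Genes with few counts limit the precision of their folds.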
